A study of Homo sapiens with 19 samples.

Results

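The lipid droplet and fatty acid oxidation genes described here are 9 genes listed by symbol, namely PLIN2, PLIN3, HILPDA, PNPLA2, LPIN1, VLDLR, CD36, CPT1A and CPT2. They are 9 of the 23441 genes of the deposited count table, and all 9 were among the 14225 genes that passed the filter on low counts. Peaks of 7 chromatin immunoprecipitation (ChIP-seq) lists near their start sites complete the data, 76 of 29309 peaks lying within 50 kb of a start of a member and 36 within 10 kb. All 19 samples came from 786-O, a clear cell renal carcinoma line that is defective in VHL, the protein that marks hypoxia-inducible factors (HIFs) for destruction. Pools of these cells were transduced with a lentivirus that was either the empty pRRL vector or the same vector with a HIF-1a transgene (pRRL-HIF-1a) or with a HIF-2a transgene (pRRL-HIF-2a), and EGFP followed the transgene on the same transcript. The 3 pools are called here control, HIF-1a re-expressing and HIF-2a overexpressing cells, with 3 RNA-seq libraries each. Control cells already hold endogenous HIF-2a, and their own HIF1A transcripts are truncated, so the HIF-1a pool holds both factors while the control and HIF-2a pools differ in the amount of 1 factor. Each pool was a single cell line grown as a mixture of infected cells, and the labels do not say whether the replicates were separate infections.

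Lipid droplets are stores of triglyceride and cholesteryl ester inside a single layer of phospholipid, and their abundance gives clear cell renal carcinoma its pale cytoplasm. Perilipins coat the droplet and limit the access of lipases, PNPLA2 (ATGL) takes the first fatty acid off each triglyceride, and HILPDA is a small hypoxia-induced protein that inhibits PNPLA2. Fatty acids reach the droplet from lipoproteins taken up by receptors such as VLDLR, from transporters such as CD36 and from synthesis, in which LPIN1 supplies diacylglycerol. They leave it for the mitochondrion through CPT1A and CPT2, the outer and inner carnitine palmitoyltransferases, of which CPT1A sets the rate. HIFs are dimers of an oxygen-regulated alpha subunit (HIF-1a, or HIF-2a encoded by EPAS1) and HIF-1b, and they bind the hypoxia response element, whose core reads ACGTG or GCGTG.

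The transgenes followed the labels. HIF1A stood at 30.4, 36.7 and 152 CPM (counts scaled to library size, with TMM factors) in control replicates 1 to 3, at 171, 1681 and 472 CPM in HIF-1a re-expressing cells, and at 15.3, 30.3 and 17.5 CPM in HIF-2a overexpressing cells. EPAS1 stood at 456, 224 and 162 CPM in control cells, at 575, 627 and 397 CPM in HIF-1a re-expressing cells, and at 946, 3243 and 879.7 CPM in HIF-2a overexpressing cells. Replicate 2 of each transgenic pool held the most of its transgene. EPAS1 was also higher in HIF-1a re-expressing than in control cells within each number. Changes given below as with HIF-1a therefore cannot be told apart from changes with more EPAS1. Libraries held 27852754 to 54287621 counts. All 6 renal carcinoma markers used here exceeded 1 CPM in every library, with a summed level of 4564 to 7149 CPM. The adipocyte markers ADIPOQ, LEP and FABP4, all 4 endothelial markers, the macrophage markers CD14, PTPRC and AIF1 and the hepatocyte markers ALB, APOA1 and TTR were under 1 CPM in every library. Of those lists CFD, PLIN1, CD68, CSF1R and SERPINA1 exceeded 1 CPM in at least 1 library. The adipocyte markers CFD and PLIN1 reached 13.8 and 2.18 CPM, both in HIF-1a re-expressing cells. The summed level over the 9 libraries was 30.5 to 163 CPM for the macrophage list and 44.9 to 396 CPM for the hepatocyte list. The summed adipocyte list ranged from 1.48 to 4.22 CPM in control, 2.48 to 16.2 CPM in HIF-1a re-expressing and 1.20 to 3.52 CPM in HIF-2a overexpressing cells. Libraries with the same replicate number deviated together, with correlations of 0.385 to 0.647 over genes in 9 pairs against -0.436 to 0.0190 in the 18 pairs of different numbers. Deviations were taken from the mean of each pool and cancel within it, so the low values for different numbers partly follow from the positive ones. Ratios within a number and a fit that takes the number as a block (called the replicate block) are therefore given as well.

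The HIF peaks are described first, because the sequences under them differ between members. A list without a peak means that none passed the authors' threshold, not that binding was absent. The lists differ in size, with 1719 and 1350 peaks of endogenous HIF-2a in control and HIF-1a re-expressing cells against 5283 of overexpressed HIF-2a. The paper reports weak HIF-2a signal in control cells at many newly called sites, and little effect of HIF-1a on HIF-2a binding. The promoter of HILPDA was the only member site within 10 kb that all 7 lists held. Its peaks, each 2500 bp wide, lay between positions 128094175 and 128097468 of chromosome 7 in GRCh37, with midpoints 0.479 to 0.003 kb upstream of the nearest start. Below are the 300 bases that precede the first start of HILPDA (chr7:128095603-128095902, plus strand, outside the HILPDA transcripts, with bases next to the start that the annotation places in an exon of ENSG00000273184), shown because the matches to the core are packed here. Capitals mark each match to ACGTG or GCGTG on either strand, read as CACGT or CACGC when it lies on the other strand.
HILPDA promoter: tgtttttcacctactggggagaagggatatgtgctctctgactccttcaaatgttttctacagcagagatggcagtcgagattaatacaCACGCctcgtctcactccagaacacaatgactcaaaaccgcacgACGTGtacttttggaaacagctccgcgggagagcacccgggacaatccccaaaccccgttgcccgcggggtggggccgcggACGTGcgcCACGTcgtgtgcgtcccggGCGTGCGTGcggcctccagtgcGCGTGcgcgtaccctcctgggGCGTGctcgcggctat
This window held 8 matches, and 0.229% of the 123812 equally long windows before start sites of tested genes held as many. The window was chosen for its matches, so this share is only a description. Those windows take every annotated start, so a gene can count more than once, and they were not matched for base content. It also held 1 match to the AP-1 motif TGACTCA, sought on both strands and left in lower case here. At least 1 match to the core was present in 50.1% of those start windows and an AP-1 match in 3.98%. A match here is a run of letters, not a measured contact.

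The promoter of PLIN2, the most abundant droplet coat gene here, held peaks in 6 of the 7 lists, between 19126141 and 19129162 on chromosome 9. The list without it was HIF-2a in HIF-1a re-expressing cells. The window before the start at 19127490 (chr9:19127491-19127790, minus strand) lies in an intron of longer PLIN2 transcripts that begin at 19149288. It is shown for the 3 places where the core occurs, 1 of them palindromic, which counts once on each strand.
PLIN2 promoter: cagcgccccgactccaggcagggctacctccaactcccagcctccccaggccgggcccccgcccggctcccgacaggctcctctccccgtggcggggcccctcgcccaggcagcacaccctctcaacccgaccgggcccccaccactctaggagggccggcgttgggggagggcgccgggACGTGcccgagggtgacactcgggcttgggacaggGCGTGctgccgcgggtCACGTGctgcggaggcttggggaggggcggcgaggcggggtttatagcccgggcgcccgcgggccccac
With 4 matches, this window, also chosen for its matches, shared its count or a higher one with 4.45% of start windows, and it had no AP-1 match.

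A PLIN2 site further out was present in all 7 lists. Its peaks lay between 19160725 and 19163757 on chromosome 9, 12.7 to 13.2 kb upstream of the outermost PLIN2 start, in sequence with no annotated gene. The list of HIF-2a in HIF-1a re-expressing cells, which lacked the promoter peak, held this one. The 300 bases at the peak midpoints held no AP-1 match in any list. They held 1 match to the core for HIF-1b in HIF-2a overexpressing cells and none in the other lists. Over all peaks of a list, the share of midpoints with a match to the core ran from 45.7% to 68.2%. The lowest share was for overexpressed HIF-2a and the highest for HIF-1b in HIF-1a re-expressing cells, so midpoints without a match were common in every list.

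Another group of PLIN2 peaks lay inside the gene, between 19114870 and 19117846, in 3 lists: endogenous HIF-2a, overexpressed HIF-2a and HIF-1b of control cells. The 300 bases at the midpoint of the HIF-2a peaks held 3 matches to the core in control cells and 4 in HIF-2a overexpressing cells, with 2 AP-1 matches in each. Those at the midpoint of the HIF-1b peak held no match to either motif. The HIF-1a list had no peak there. AP-1 matches occurred in 27.5% of the endogenous HIF-2a midpoints, 24.7% of the overexpressed HIF-2a midpoints and 7.73% of the HIF-1a midpoints over all peaks of each list.

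VLDLR, which takes up triglyceride-rich lipoproteins, held a peak at its start in 5 lists, between 2620699 and 2623786 on chromosome 9. HIF-1a and HIF-1b of HIF-1a re-expressing cells, HIF-1b of control cells and both lists of HIF-2a overexpressing cells were the 5. The lists of endogenous HIF-2a, in control and in HIF-1a re-expressing cells, had none. The 300 bases at the peak midpoint held 0 matches to the core for HIF-1a and 1 for HIF-1b in HIF-1a re-expressing cells. They held 1 for HIF-1b in control cells, and 2 for HIF-2a and 0 for HIF-1b in HIF-2a overexpressing cells. The shares of all midpoints with a match to the core, given above for the outer PLIN2 site, apply here too. The 30 bases below (chr9:2621623-2621652, plus strand, in the non-coding part of the leading exon) hold the densest run of the core under these peaks, with 3 matches. They were picked for that density, and no share of other windows was computed for them.
VLDLR start region: actCACGCACGCtcacactcgCACGCtccc
The antisense gene VLDLR-AS1 overlaps this region and HILPDA-AS1 overlaps HILPDA. The libraries were directional, but the strand setting of the counting was not given in the sources used here, so counts of VLDLR and HILPDA could include antisense reads.

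The remaining members had fewer peaks or peaks nearer to other genes. LPIN1 had an intronic site 19.9 to 20.3 kb after its outermost start (11817721 on chromosome 2) in 4 lists. These were HIF-1a, HIF-1b of control, and both lists of HIF-2a overexpressing cells, with no peak in either list of endogenous HIF-2a. Its only peaks within 10 kb of a start lay at 1 cluster of starts further inside the annotated gene. They were a peak of overexpressed HIF-2a 2.39 kb before the start at 11886714 and a HIF-1b peak of HIF-1a re-expressing cells 0.196 kb after that at 11886764. PLIN3 had peaks 1.32 to 2.66 kb upstream of its outermost start in 3 lists and an intronic site 8.05 to 8.81 kb after a start in 3 lists. PNPLA2 had a HIF-1b peak 0.210 kb after its first start and a HIF-1a peak 0.354 kb before an internal start, both in HIF-1a re-expressing cells. The other PNPLA2 peaks, in every pool, lay nearer the starts of neighbours such as RPLP2, EFCAB4A, CD151 and TSPAN4. CPT1A and CPT2 had no peak within 50 kb in any list, and CD36 had a single peak of overexpressed HIF-2a, 49.5 kb away.

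Counted by list, a midpoint within 10 kb of a start was found for 2 of 9 members with endogenous HIF-2a in control cells (PLIN2 and HILPDA), where 5.32% of tested genes had one. For HIF-1b in control cells the count was 5 of 9, against 25.7% of tested genes. HIF-1a itself reached 5 of 9 against 34.6%, endogenous HIF-2a in HIF-1a re-expressing cells 1 of 9 (HILPDA) against 4.21%, and HIF-1b in those cells 5 of 9 against 40.8%. Overexpressed HIF-2a reached 6 of 9 against 14.5%, and HIF-1b in the same cells 5 of 9 against 16.2%. In any list, 6 of 9 members had such a peak against 55.0% of tested genes, and within 50 kb 7 of 9 against 72.3%. In the lists of control and HIF-2a overexpressing cells the PNPLA2 peaks that counted were the ones nearer to neighbouring genes. Each list rests on 1 library, so the differences between lists have no replicate check.

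**Figure D1:**
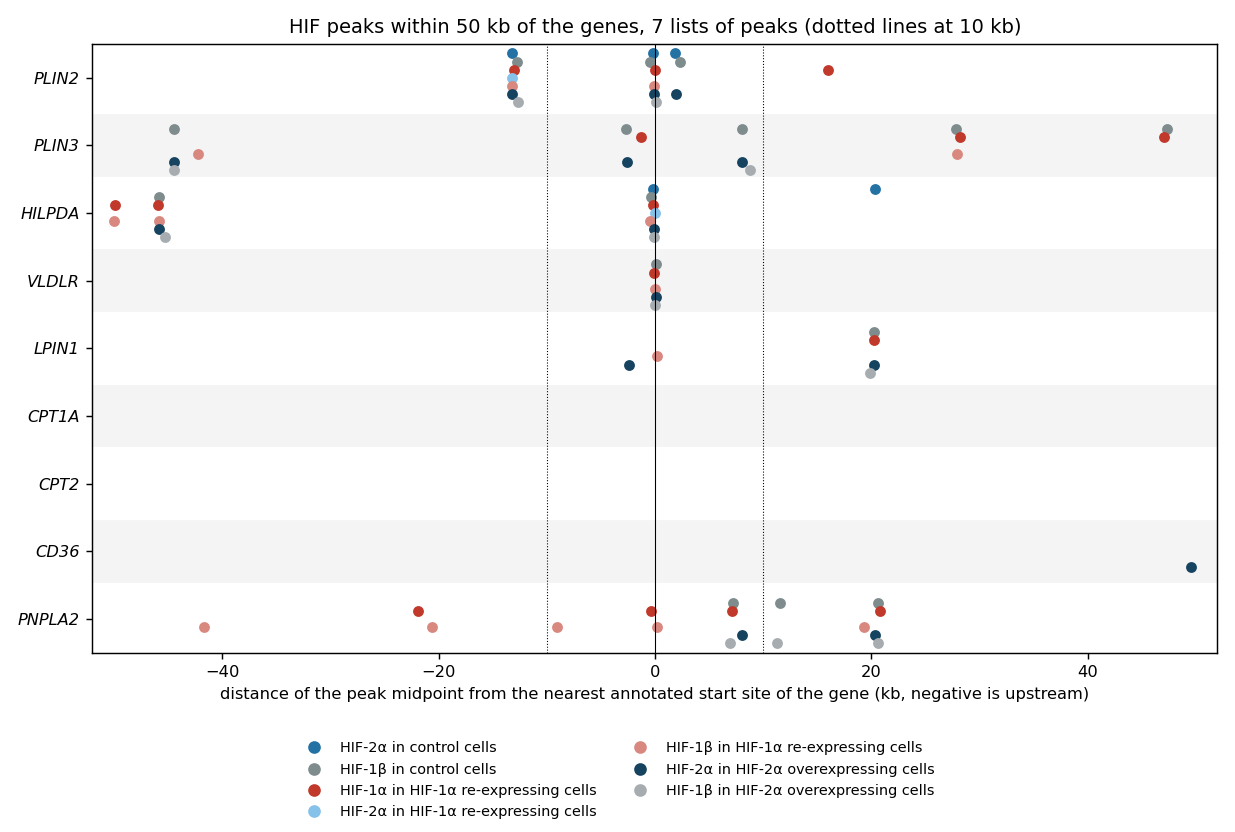
Distance in kb from each peak midpoint to the nearest start site of a member, by member and by peak list (1 library each), with the 10 kb limit marked. Peaks of all 7 lists stand at HILPDA and 6 at the PLIN2 promoter, while CPT1A and CPT2 have none within 50 kb.

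PLIN2, the main perilipin of cells other than adipocytes, was higher in HIF-2a overexpressing cells than in the other 2 pools. It stood at 577, 458 and 436 CPM in control replicates 1 to 3, at 455, 573 and 417 CPM in HIF-1a re-expressing cells and at 732, 1502 and 1229 CPM in HIF-2a overexpressing cells. Every HIF-2a library was above every other library, while control and HIF-1a libraries were mixed. In HIF-2a overexpressing against control cells the log2 fold change was 1.24 (SE 0.30, 95% interval 0.58 to 1.89), and the adjusted p 0.626 by edgeR's quasi-likelihood test with Benjamini-Hochberg adjustment over all tested genes. With the replicate block it was 1.19 (SE 0.26), edgeR adjusted p = 0.119, while DESeq2 without the block gave an adjusted p of 0.0341. Within numbers PLIN2 was 1.27, 3.28 and 2.82 times higher than in control, in the same order as the EPAS1 ratios of 2.07, 14.5 and 5.43. The levels did not share this order, as EPAS1 was lowest in replicate 3 of the HIF-2a pool and PLIN2 in replicate 1. With 3 pairs a shared order is only a description. In HIF-1a re-expressing cells the change was -0.02 (interval -0.67 to 0.62, edgeR adjusted p = 0.971), and the 3 ratios of 0.789, 1.25 and 0.957 lay on both sides of 1. In these bulk libraries fewer cells with a transcript and less of it per cell cannot be told apart.

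PLIN3, a coat protein that is also found free in the cytosol, stood at 203, 225 and 211 CPM in control cells, 129, 181 and 220.5 CPM in HIF-1a re-expressing cells and 187, 192 and 210.4 CPM in HIF-2a overexpressing cells. The pools overlapped. The change was -0.27 on the log2 scale (interval -0.77 to 0.23) with HIF-1a and -0.12 (interval -0.62 to 0.38) with HIF-2a, with edgeR adjusted p of 0.522 and 0.942.

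HILPDA varied more between replicates of a transgenic pool than any other member, with a coefficient of variation of 98.9% with HIF-1a and 72.3% with HIF-2a. Its levels were 39.4, 51.9 and 40.5 CPM in control cells, 33.5, 317 and 99.4 CPM in HIF-1a re-expressing cells, and 55.5, 220.5 and 87.4 CPM in HIF-2a overexpressing cells. Replicate 2 was the highest and replicate 1 the lowest in both transgenic pools, as for HIF1A in the HIF-1a pool. In the HIF-2a pool EPAS1 was instead lowest in replicate 3. All 3 HIF-2a libraries were above all 3 control libraries, whereas HIF-1a replicate 1 was below them. The log2 fold change was 1.77 (SE 0.72, interval 0.17 to 3.38, edgeR adjusted p = 0.232) with HIF-1a and 1.46 (SE 0.72, interval -0.13 to 3.05, edgeR adjusted p = 0.837) with HIF-2a. With the block these values were 1.21 (edgeR adjusted p = 0.0925) and 1.11 (edgeR adjusted p = 0.287). Without HIF-1a replicate 2 the HIF-1a change without the block was 0.57, and without HIF-2a replicate 2 the HIF-2a change was 0.69. With the block, leaving out control replicate 2 or control replicate 1 gave 0.66 and 1.75 for HIF-1a (edgeR adjusted p = 0.334 and 0.0270) and 0.64 and 1.74 for HIF-2a (edgeR adjusted p = 0.630 and 0.0727), and leaving out HIF-1a replicate 2 gave 0.74 for HIF-1a. The ratios within numbers were 0.852, 6.10 and 2.45 with HIF-1a and 1.41, 4.24 and 2.16 with HIF-2a. The HIF1A ratios with HIF-1a were 5.64, 45.8 and 3.12, lowest in replicate 3, whereas the HILPDA ratio was lowest in replicate 1.

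PNPLA2, the lipase that HILPDA inhibits, stood at 69.7, 83.7 and 121 CPM in control cells, 65.4, 81.0 and 113 CPM in HIF-1a re-expressing cells and 61.2, 68.6 and 89.5 CPM in HIF-2a overexpressing cells. In every pool replicate 1 was lowest and replicate 3 highest, and 82.2% of the variance of its log2 level over the 9 libraries lay between replicate numbers against 15.6% between pools. Its change was -0.08 with HIF-1a (interval -0.70 to 0.54, edgeR adjusted p = 0.896) and -0.32 with HIF-2a (interval -0.95 to 0.30, edgeR adjusted p = 0.867). The ratios to control were nevertheless close to each other, 0.938, 0.968 and 0.934 with HIF-1a and 0.878, 0.819 and 0.739 with HIF-2a. With the block the interval for HIF-1a narrowed to -0.42 to 0.26.

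**Figure D2:**
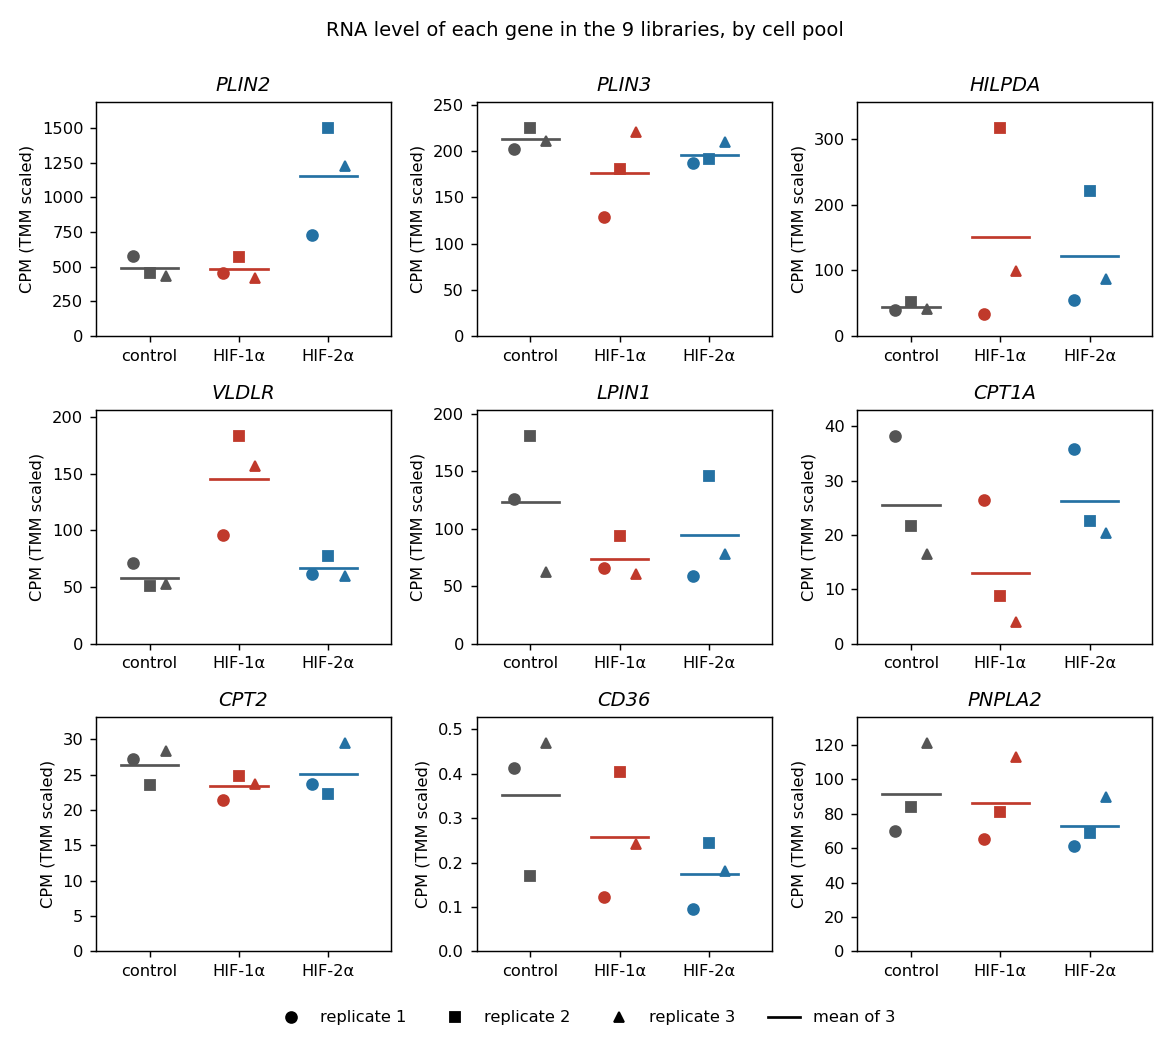
Level of each of the 9 members in CPM (linear axes from 0) in the 9 libraries, by pool, with replicates 1 to 3 as circles, squares and triangles and the mean of each pool as a line. PLIN2 is highest in the HIF-2a libraries, VLDLR in the HIF-1a libraries, and HILPDA is spread from 33.5 to 317 CPM within the HIF-1a pool.

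VLDLR was higher in HIF-1a re-expressing cells than in the other 2 pools. It stood at 71.6, 50.9 and 52.4 CPM in control cells, at 96.2, 184 and 157 CPM in HIF-1a re-expressing cells and at 61.8, 77.1 and 60.2 CPM in HIF-2a overexpressing cells. All HIF-1a libraries were above all others, and control and HIF-2a libraries overlapped. The log2 fold change with HIF-1a was 1.32 (SE 0.27, interval 0.72 to 1.92), with an edgeR adjusted p of 0.149. With the replicate block it was 1.29 (SE 0.26) and passed, with an edgeR adjusted p of 0.0358, and DESeq2 without the block gave 0.00362. Between pools lay 80.5% of its variance, the largest share among the members. With HIF-2a the change was 0.19 (interval -0.40 to 0.78, edgeR adjusted p = 0.915), with ratios of 0.864, 1.52 and 1.15. The blocked call with HIF-1a was lost without control replicate 2 (1.03, edgeR adjusted p = 0.197), control replicate 3 (1.19, adjusted p = 0.143), HIF-1a replicate 2 (1.10, adjusted p = 0.0890), HIF-1a replicate 3 (1.14, adjusted p = 0.101) or HIF-2a replicate 1 (1.26, adjusted p = 0.0586).

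CD36, a fatty acid translocase, was barely detected. Its counts were 16, 6 and 18 in control cells, 5, 16 and 13 in HIF-1a re-expressing cells and 4, 7 and 7 in HIF-2a overexpressing cells, all under 0.5 CPM. The pools overlapped, and at this depth the intervals of -1.80 to 0.89 (HIF-1a) and -2.44 to 0.37 (HIF-2a) on the log2 scale left a change in either direction possible.

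LPIN1, a phosphatidate phosphatase that makes diacylglycerol for triglyceride synthesis, stood at 126, 181 and 62.6 CPM in control cells, 66.0, 93.9 and 60.8 CPM in HIF-1a re-expressing cells and 58.9, 146 and 78.5 CPM in HIF-2a overexpressing cells. Replicate 2 was highest in each pool, and 57.8% of the variance lay between numbers. The change was -0.74 with HIF-1a (interval -1.68 to 0.19, edgeR adjusted p = 0.349), with ratios of 0.524, 0.518 and 0.971, and -0.67 with the block (edgeR adjusted p = 0.112). With HIF-2a it was -0.38 (interval -1.32 to 0.55, edgeR adjusted p = 0.884). The intronic site that LPIN1 shares between HIF-1a and overexpressed HIF-2a thus stood in a gene with no called change in either pool.

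CPT1A, the entry step of mitochondrial fatty acid oxidation, stood at 38.3, 21.7 and 16.4 CPM in control cells, at 26.5, 8.80 and 3.91 CPM in HIF-1a re-expressing cells and at 35.8, 22.7 and 20.4 CPM in HIF-2a overexpressing cells. Replicate 1 was highest and replicate 3 lowest in each pool. The HIF-1a pool overlapped the other 2, but within each number its library was the lowest of the 3. The ratios to control were 0.691, 0.405 and 0.238. The log2 fold change with HIF-1a was -0.97 (SE 0.60, interval -2.31 to 0.38, edgeR adjusted p = 0.391), and -1.22 with the block (SE 0.33, interval -1.96 to -0.49, edgeR adjusted p = 0.0517). Without HIF-1a replicate 1 it was -2.01, and without HIF-1a replicate 3 it was -0.53. With the block it was -1.72 without HIF-1a replicate 1 (edgeR adjusted p = 0.0384) and -1.40 without control replicate 1 (edgeR adjusted p = 0.0462), the only 2 libraries whose removal took it past the threshold. With HIF-2a the change was 0.04 (interval -1.28 to 1.37) and with the block 0.12 (interval -0.60 to 0.83), edgeR adjusted p of 0.996 and 0.890. No list had a peak within 50 kb of this gene, and the 300 bases before its start sites held no match to the core at 6 starts and 2 matches at each of 2 internal ones.

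CPT2, which completes the transfer into the mitochondrial matrix, hardly varied. It stood at 27.2, 23.6 and 28.4 CPM in control cells, 21.5, 24.8 and 23.7 CPM in HIF-1a re-expressing cells and 23.6, 22.3 and 29.4 CPM in HIF-2a overexpressing cells. The changes were -0.18 (interval -0.64 to 0.28) and -0.07 (interval -0.53 to 0.39), with edgeR adjusted p of 0.661 and 0.968.

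Per kb of exonic length, PLIN2 was the most abundant member in all 3 pools, with 97.8 ± 15.1 CPM per kb in control cells, 96.2 ± 16.3 in HIF-1a re-expressing cells and 230.3 ± 77.9 in HIF-2a overexpressing cells (SD, n = 3). In control cells PLIN3 (77.8), PNPLA2 (23.9), HILPDA (21.2), LPIN1 (10.4), CPT1A (3.88), VLDLR (3.53), CPT2 (2.61) and CD36 (0.0323) followed, in mean CPM per kb. The libraries of PNPLA2 and HILPDA, of LPIN1 and CPT1A, and of CPT1A and VLDLR overlapped, so these neighbours were not ordered beyond their spread. The length covers the exons of all annotated transcripts of a gene (6.57 kb for CPT1A, 10.1 kb for CPT2), while the counts were made on UCSC genes. Orders between genes therefore also depend on the annotation. Before division by length, the control means were 26.4 CPM for CPT2 and 25.5 CPM for CPT1A. In HIF-1a re-expressing cells HILPDA stood next to PLIN2 at 72.4 CPM per kb, where PLIN2, HILPDA and PLIN3 (64.5) overlapped in turn, and VLDLR stood at 8.81 ahead of LPIN1 (6.20), which it overlapped. In HIF-2a overexpressing cells HILPDA was at 58.5 CPM per kb and overlapped PLIN3 (71.7), and VLDLR overlapped CPT1A.

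In the comparison of HIF-1a re-expressing with control cells, no member passed the adjusted threshold of 0.05 by edgeR without the block, where 0% of tested genes were called. At an unadjusted p under 0.05 there were 2 (HILPDA and VLDLR), against 19.4% of tested genes. With the block 1 member passed by edgeR (VLDLR, higher), against 7.96% of tested genes, of which 5.41% were higher and 2.55% lower, and DESeq2 without the block called 1 (VLDLR) against 5.25%. Only VLDLR had pools that did not overlap, against 24.1% of tested genes, and 4 of 9 members had the same direction in all 3 pairs (VLDLR higher, LPIN1, CPT1A and PNPLA2 lower), against 54.1%. A single gene is 11.1% of the 9 members, so none of these counts stood more than 1 gene above the background.

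For HIF-2a overexpressing against control cells, which share the control libraries with the comparison above, edgeR called no member and 0% of tested genes without the block. With the block no member passed either, against 0.267%, and DESeq2 called PLIN2 against 0.412%. At an unadjusted p under 0.05 there was 1 member (PLIN2), against 5.89%. The pools did not overlap for 2 of 9 members (PLIN2 and HILPDA), against 11.2%, and 4 of 9 had the same direction in all 3 pairs (PLIN2 and HILPDA higher, PLIN3 and PNPLA2 lower), against 39.2%.

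**Figure D3:**
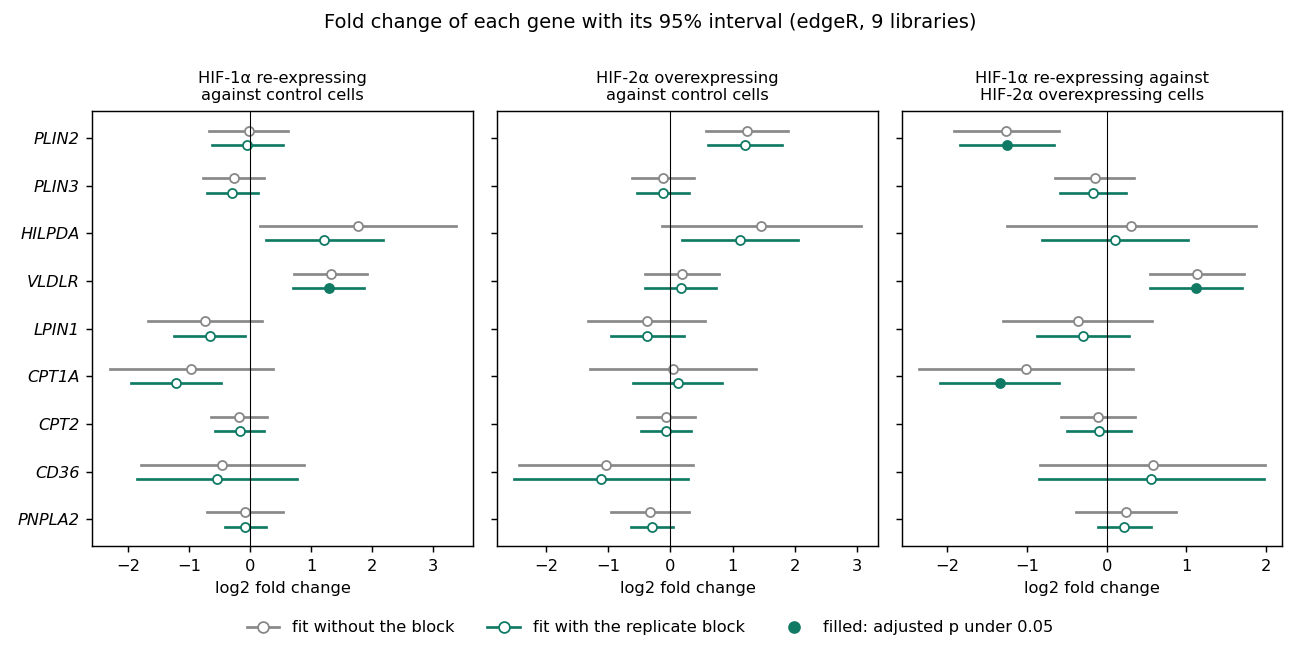
Log2 fold change of each member in the 3 comparisons with its 95% interval, from edgeR without (grey) and with (green) the replicate block, filled where the adjusted p was under 0.05. Intervals are narrower with the block for CPT1A and HILPDA, and those of VLDLR with HIF-1a and PLIN2 with HIF-2a lie above 0 in both fits.

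The direct comparison of HIF-1a re-expressing with HIF-2a overexpressing cells sets the 2 transgenic pools against each other. EPAS1 was also higher in HIF-1a re-expressing than in control cells in all 3 pairs, with ratios of 1.26, 2.80 and 2.45. Transgene levels differed between replicates as well. Unequal responses to the 2 factors therefore cannot be told apart from unequal amounts of them. Without the block edgeR called no member, where 0.0492% of tested genes were called, and 2 members had an unadjusted p under 0.05 (PLIN2 and VLDLR), against 13.6%. With the block 3 of 9 members passed, VLDLR higher and PLIN2 and CPT1A lower, against 5.93% of tested genes, 4.54% higher and 1.38% lower. DESeq2 without the block called PLIN2 and VLDLR, against 4.43%. The pools did not overlap for PLIN2 and VLDLR, against 19.2%, and 5 of 9 members had the same direction in all 3 pairs (VLDLR, CD36 and PNPLA2 higher, PLIN2 and CPT1A lower), against 49.4%.

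PLIN2 was lower with HIF-1a than with HIF-2a by a log2 value of -1.26 (SE 0.30, interval -1.92 to -0.60, edgeR adjusted p = 0.110), and by -1.25 with the block (SE 0.26, edgeR adjusted p = 0.0274). The ratios were 0.622, 0.382 and 0.339. VLDLR was higher by 1.13 (SE 0.27, interval 0.54 to 1.73, edgeR adjusted p = 0.111), and by 1.12 with the block (SE 0.26, edgeR adjusted p = 0.0356), with ratios of 1.56, 2.38 and 2.60. CPT1A differed by -1.01 (SE 0.60, interval -2.35 to 0.33, edgeR adjusted p = 0.488), and by -1.34 with the block (SE 0.33, interval -2.09 to -0.59, edgeR adjusted p = 0.0481), with ratios of 0.741, 0.388 and 0.192. HILPDA, bound at its promoter in every list, did not pass, with a difference of 0.31 (interval -1.25 to 1.87, edgeR adjusted p = 0.884) and 0.10 with the block (interval -0.82 to 1.01). PNPLA2 differed by 0.24 (interval -0.38 to 0.87) and by 0.22 with the block (interval -0.11 to 0.56, edgeR adjusted p = 0.383).

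These blocked calls rested on few libraries. The PLIN2 call was lost without HIF-1a replicate 1, 2 or 3 (edgeR adjusted p = 0.0720, 0.0833 and 0.0955) and without HIF-2a replicate 2 or 3 (0.0850 and 0.141). The VLDLR call was lost without control replicate 3 (0.0510), HIF-1a replicate 2 (0.149) or 3 (0.113), or HIF-2a replicate 1 (0.113), 2 (0.0838) or 3 (0.196), in edgeR adjusted p. The CPT1A call was lost without every library except HIF-1a replicate 1, with edgeR adjusted p of 0.0505, 0.0827 and 0.0623 without control replicates 1, 2 and 3, 0.135 and 0.0962 without HIF-1a replicates 2 and 3, and 0.0554, 0.0972 and 0.197 without HIF-2a replicates 1, 2 and 3. The direction of all 3 genes held in each of these fits.

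**Figure D4:**
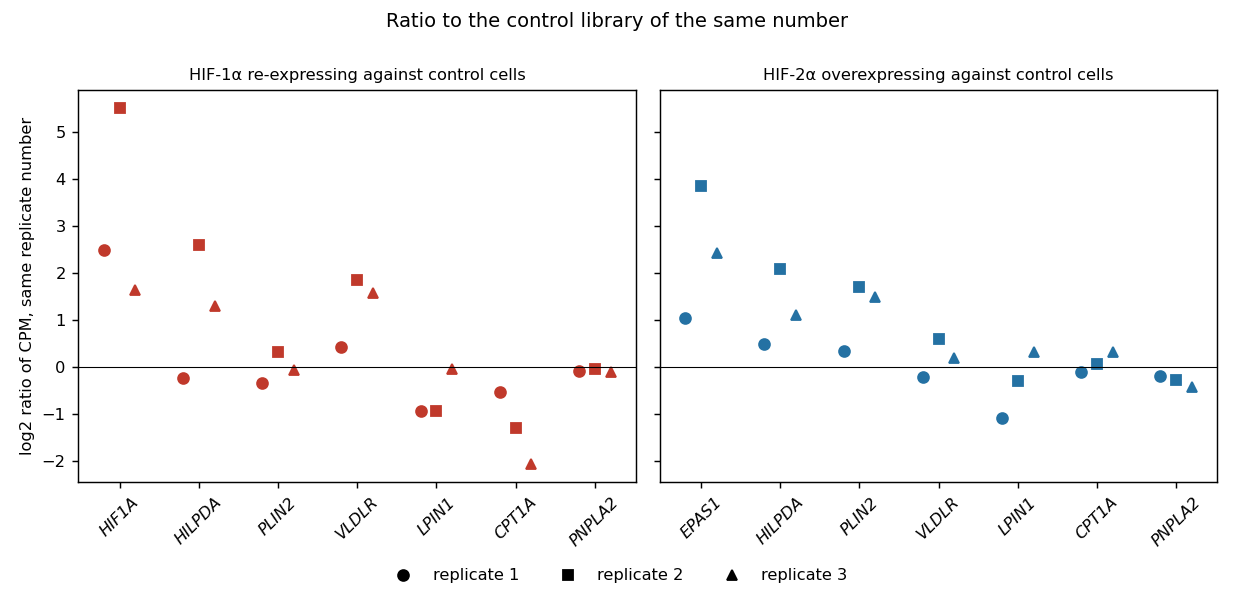
Log2 ratio of CPM to the control library of the same replicate number for HIF1A (left), EPAS1 (right) and 6 members, with replicates as circles, squares and triangles. CPT1A lies under 0 in all 3 pairs with HIF-1a (ratios of 0.691, 0.405 and 0.238), PLIN2 above 0 in all 3 pairs with HIF-2a, and replicate 2 has the largest ratios of both transgenes.

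Other genes of the pathway were counted from lists by role, with the replicate block and edgeR, over the genes tested. The shares of all tested genes given above for the blocked fit (5.41% higher and 2.55% lower with HIF-1a against control) apply to these counts. Of 8 tested genes for coat and assembly of the droplet, 1 was lower in HIF-1a re-expressing than in control cells, AUP1, a droplet-associated protein of the ubiquitin pathway (-0.67, SE 0.17, edgeR adjusted p = 0.0450 with the block and 0.219 without it). AUP1 stood at 195, 124 and 141 CPM in control and at 128, 77.1 and 85.5 CPM in HIF-1a re-expressing cells. None of 15 triglyceride synthesis genes, 8 lipolysis genes and 8 lipid regulators passed in this comparison, with medians of -0.00, -0.04 and 0.07, and the median of the coat list was -0.03. Of 10 uptake genes, with a median of 0.66, 2 were higher, VLDLR and LRP1, a large endocytic receptor of the same family. That median includes genes with few counts, namely CD36, FABP3, FABP6 and SLC27A3, with control means of 0.351, 0.118, 1.06 and 1.31 CPM. SLC27A1, SLC27A3 and FABP3 were also higher in all 3 pairs. FABP5 (means of 167 CPM in control and 118 CPM with HIF-1a) and SLC27A4 (43.2 and 23.3 CPM) were lower in all 3. LRP1 stood at 142, 57.1 and 70.4 CPM in control, 224, 563 and 481 CPM in HIF-1a re-expressing and 173, 214 and 197 CPM in HIF-2a overexpressing cells. Its change with HIF-1a was 2.23 (SE 0.44), with an edgeR adjusted p of 0.0358 with the block and 0.149 without it.

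Of 19 tested genes of mitochondrial fatty acid oxidation, 1 passed as lower with HIF-1a (5.26%, against 2.55% of all tested genes), ECI1, an isomerase that handles double bonds during oxidation (-0.61, SE 0.16, edgeR adjusted p = 0.0491 with the block and 0.264 without it). None was called higher and 3 had a positive change, among them ACADVL, the very long-chain acyl-CoA dehydrogenase, chosen after its values were seen. ACADVL stood at 224, 208 and 252 CPM in control and 302, 409.6 and 277 CPM in HIF-1a re-expressing cells, without overlap (0.54 with the block, SE 0.25, edgeR adjusted p = 0.160). The median log2 fold change of the 19 was -0.37, against 0.04 over all tested genes. ECI1 stood at 69.2, 57.9 and 94.3 CPM in control, 54.0, 35.3 and 55.7 CPM in HIF-1a re-expressing and 49.6, 34.5 and 58.7 CPM in HIF-2a overexpressing cells. With HIF-2a against control no gene of any list passed with the block, and the oxidation list had a median of -0.16 with 5 of 19 positive, against -0.01 over all tested genes. The medians of the coat, synthesis, lipolysis, uptake and regulator lists with HIF-2a were -0.10, 0.01, 0.10, -0.00 and -0.41.

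In the direct comparison, where 4.54% of tested genes were higher and 1.38% lower with the block, the oxidation list had CPT1A as its only called gene and a median of -0.21, against 0.01 over all tested genes. The coat list had PLIN2 as its only called gene (lower, median -0.05), and the lipolysis list had none (median 0.12). In the uptake list VLDLR alone passed (higher, median 0.55). ACSL5, which activates long-chain fatty acids, was the called gene of the synthesis list (median -0.09), higher by 1.14 (SE 0.25, edgeR adjusted p = 0.0320 with the block and 0.489 without it). It stood at 17.8, 8.83 and 2.94 CPM with HIF-1a, 6.38, 3.94 and 1.72 CPM with HIF-2a and 20.0, 7.14 and 3.23 CPM in control cells. Its ratios to control were 0.893, 1.24 and 0.910 with HIF-1a and 0.319, 0.552 and 0.533 with HIF-2a. PPARG, a nuclear receptor of fat storage, was the called gene among 8 lipid regulators (median 0.37), higher by 0.84 (SE 0.20, edgeR adjusted p = 0.0430 with the block and 0.575 without it), and stood at 65.1, 18.8 and 25.9 CPM with HIF-1a, 33.1, 13.4 and 12.5 CPM with HIF-2a and 68.6, 18.3 and 17.7 CPM in control cells. Levels of ACSL5 and PPARG were highest in replicate 1 of every pool.

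**Figure D5:**
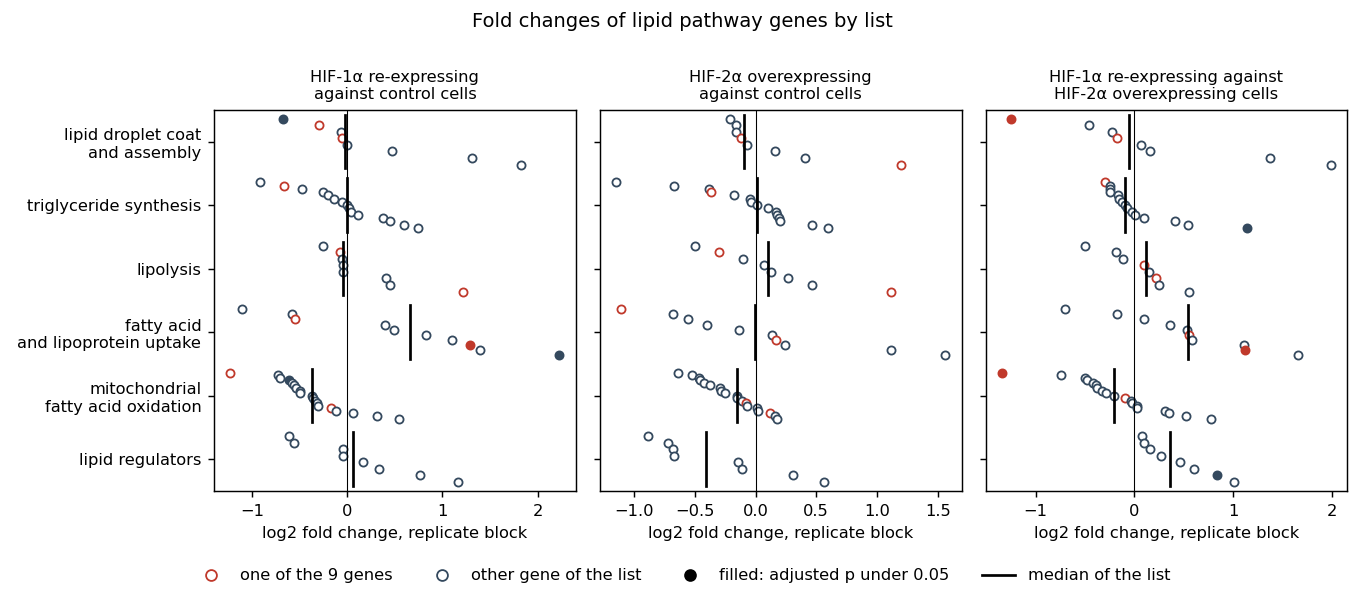
Log2 fold change of every tested gene of the 6 pathway lists in the 3 comparisons, from edgeR with the replicate block, with the median of each list as a line, the 9 members in red and genes past the adjusted threshold filled. The oxidation list has a median of -0.37 with HIF-1a, against 0.04 over all tested genes. VLDLR and LRP1 lie above the median of 0.66 of the uptake list, which includes genes with few counts such as CD36.

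The gene nearest in pattern to each member was found as the smallest root mean square difference of gene-centred log2(CPM + 1) over the 9 libraries, among 10669 genes of at least 5 CPM on average (10670 for CD36). For PLIN2 it was SLC2A1, a glucose transporter, at 0.144 against a median of 0.727 over the candidates. INSIG1, which holds back sterol synthesis, was nearest to LPIN1 (0.185 against 0.666), and APLN, a secreted vascular peptide, to HILPDA (0.341 against 1.14). OXR1 was nearest to VLDLR (0.195 against 0.737), ADI1 to CPT1A (0.287 against 0.933) and ZNF444 to PNPLA2 (0.0919 against 0.489). PLIN3, CPT2 and CD36, which varied least on this scale, were nearest to ACYP1, MAP3K13 and UBE2E1, at 0.0967, 0.0280 and 0.0939. These likenesses are over 9 libraries that share pools and replicate numbers, and are a description.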

How the data were processed

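RNA was measured in 9 polyA-selected directional libraries of 3 pools of 786-O cells, and HIF binding in 7 chromatin libraries. The counts were deposited by the authors as raw whole-number counts per gene, made with TopHat2 2.0.8b on GRCh37 and HTSeq 0.5.4p3 in strict intersection mode on UCSC genes, with uniquely mapped fragments. The deposited peak lists hold windows of 2500 bp that the authors called with T-PIC and MACS against input, after alignment with BWA 0.7.5a-r405, 1 library per list; the lists hold no height or p-value. The 3 input libraries have no list and were not used. Totals of 27852754 to 54287621 counts per library leave counting error small for members other than CD36.

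Genes were filtered with filterByExpr, scaled by TMM (factors 0.9718 to 1.029) and tested with edgeR 4.0.16 (quasi-likelihood, R 4.3.3) over 9 libraries with the pool as the only term, since the study names no block, with Benjamini-Hochberg adjustment over 14225 genes. Because libraries of the same number came out correlated, results with that number as a block are printed beside it. DESeq2 1.42.0, other size factors, no filter, 6 libraries and each library left out were alternatives, and DESeq2 with the block and the block with each library left out were added after seeing the data. Scripts were tested on simulated data. Where separate cultures are not stated, p-values measure the spread between these libraries, which may be technical.

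A peak counted for a gene when its midpoint lay within 10 kb of any GENCODE v44 start lifted to GRCh37, with 5 kb, 50 kb and 1 start per gene as alternatives. Of the 23441 symbols 20654 matched the annotation directly and 1404 by an older symbol. Peaks of different lists were 1 site when they shared at least 1 base, or 50% of the shorter peak as an alternative, which left the 5 members with a shared site within 10 kb at 5. The members, the pathway lists and these tests were chosen with earlier results of these data known. All 9 members were named in every comparison, with HIF1A and EPAS1 as the check of the labels, at most 2 further pathway genes per direction and comparison, and the gene nearest in pattern. Marker lists were PAX8, PAX2, VIM, KRT8, KRT18 and CDH6 for renal carcinoma (a further marker is not reported here), and 5 adipocyte, 5 macrophage, 4 endothelial and 4 hepatocyte genes.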

Additional observations from a re-analysis of the deposited data

How the results depend on the processing

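Members past the adjusted threshold depended on the model. The fit without the block called 0, 0 and 0 of 9 members for HIF-1a against control, HIF-2a against control and HIF-1a against HIF-2a. With the replicate block edgeR called 1, 0 and 3, DESeq2 called 1, 1 and 2, and DESeq2 with the replicate block called 3, 1 and 3. Over all genes edgeR without the block called 0, 0 and 7, the replicate block 1132, 38 and 843, DESeq2 751, 65 and 650, and DESeq2 with the replicate block 3025, 487 and 1798. With no filter on low counts the last 2 comparisons gave 1 and 82 genes, and with only the 6 libraries of the 2 pools 2 and 0. The cause of these shifts was not tested, except that libraries with the same number deviate together and the block takes that spread out.

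Leaving out each library in turn gave 0 to 2 genes (HIF-2a against control) and 0 to 29 (HIF-1a against HIF-2a). With the replicate block it gave 0 to 3 and 0 to 2 members for the comparisons of HIF-1a with control and with HIF-2a, and 0 to 2408, 2 to 94 and 167 to 890 genes in the 3 comparisons. For HIF-1a against control no gene was left without control replicate 2, control replicate 3, HIF-1a replicate 2 or HIF-2a replicate 1, and 34, 211 and 503 were left without HIF-1a replicate 3, HIF-1a replicate 1 and HIF-2a replicate 3.

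No member changed direction under the other settings. When a library was left out, small changes crossed 0, in ranges of log2 fold change of -0.20 to 0.10 for PLIN2 (-0.28 to 0.26 with the block) and -0.32 to 0.17 for PNPLA2 with HIF-1a. With HIF-2a they were -0.85 to 0.012 for LPIN1, -0.24 to 0.46 for CPT1A (-0.21 to 0.37 with the block), -0.19 to 0.00074 for CPT2 and -0.070 to 0.51 for VLDLR with the block. Between HIF-1a and HIF-2a they were -0.34 to 0.023 for PLIN3, -0.90 to 1.06 for HILPDA (-0.46 to 0.52 with the block), -0.64 to 0.084 for LPIN1 and -0.036 to 0.84 for CD36 with the block.

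With 1 start per gene, members with a peak within 10 kb were 1 for HIF-2a in control cells, 3 for HIF-1b in control cells, 3 for HIF-1b in HIF-1a re-expressing cells, 3 for overexpressed HIF-2a and 2 for HIF-1b in the same cells. Within 5 kb the last list had 3, and within 50 kb endogenous HIF-2a in HIF-1a re-expressing cells had 2. CD36, with 4 to 18 counts, was limited by depth, and differences between single-library peak lists have no replicate check.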
